A study of Mus musculus with 22 samples.

Results

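Conventional CD4 T cells were taken from single-cell RNA profiles of mouse organs and blood. A droplet barcode was a member when it held at least 200 detected genes, at most 25% mitochondrial unique molecular identifiers (UMIs, each standing for a captured transcript), at least 1 UMI of Cd3d, Cd3e or Cd3g, at least 1 UMI of Cd4, and 0 UMIs of Foxp3, Cd8a, Cd8b1, Trdc, Cd79a and C1qa. The members were thus chosen by measured UMI counts of these genes, whose levels are given as a description only. There were 997 members among 179929 barcodes of the series, of which 177428 were in the tissue and PBMC libraries and 93734 of those passed the gene and mitochondrial limits. The 9 tissue libraries with a genotype held 827 members, 2 tissue libraries whose labels name conflicting genotypes held 51 and 60, and the library of peripheral blood mononuclear cells (PBMC) held 59. T cells with the same Cd3 requirement, a UMI of Cd8a or Cd8b1 and none of Cd4 are called CD8 T cells below and numbered 1477 in the 9 tissue libraries and 70 in PBMC.

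Every mouse carried Prom1-CreERT2, a tamoxifen-activated recombinase driven by the Prom1 promoter, and the Rosa26ZSG fluorescent reporter, the controls included. Tissue libraries labelled wt had no further allele (5 libraries, males of 571, 571 and 608 days and females of 611 and 654 days), those labelled Nalcn-het were from males of 551 days (2 libraries), and those labelled Nalcn-null were from a male of 552 days and a female of 611 days (2 libraries, replicates 2 and 3). Nalcn encodes a sodium leak channel. Each library pooled kidney, liver, lung and stomach with epididymis in males or uterus in females, after perfusion and enzymatic dissociation, and no organ was assigned to a barcode here. The PBMC library came from a male wt mouse of 120 days, so blood, age and library cannot be told apart. The wt replicates 1 and 2 share age and sex, as do both het replicates. The labels do not say if each pair shares a mouse, so p-values measure at most the spread between libraries. Recombination was aimed at Prom1-expressing epithelial stem and progenitor cells, and Nalcn itself had 0 UMIs in the CD4 and CD8 T cells of these libraries, so its deletion could not be checked in them.

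CD4 T cells recognise peptides on MHC class II and help other cells through surface ligands and cytokines. CD40 ligand (Cd40lg) licenses B cells and dendritic cells, while costimulatory receptors such as ICOS and OX40 (Tnfrsf4) sustain the helper cell. Naive cells recirculate through blood and lymph nodes with Ccr7 on their surface, and after activation they become effector and memory cells, many of which reside in organs. CD8 T cells recognise MHC class I and carry the granule proteins of target killing.

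The members were sparse profiles that met the limits narrowly. Cd4 was at exactly 1 UMI in 774 members (77.6%) and at 2 or more in 223, the Cd3 genes summed to 1 UMI in 256, and 180 members had 20 to 25% mitochondrial UMIs. Just outside the limits lay 127 barcodes with 25 to 30% mitochondrial UMIs, 375 without a Cd3 UMI, 54 with a Foxp3 UMI, 51 with a Cd8a or Cd8b1 UMI and 6867 Cd3-positive, Cd8-negative barcodes at 0 UMIs of Cd4. Members had a median of 1931 UMIs and 935 genes, and the CD8 T cells a median of 1957 UMIs, so 0 UMIs of a gene does not show that a cell lacked it. No member barcode sequence occurred in more than 1 library. Scores of a doublet caller (Scrublet) were ranked in each tissue library, and a preset top fraction was marked. That fraction was 0.8% per 1000 barcodes, at most 25%. It held 192 members (19.3%), which were kept, so this share follows the preset fraction and is not a measured doublet share. PBMC members were not scored.

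The library labelled null replicate 3 went against its labels. It is labelled female with uterus, yet over all its barcodes within the gene and mitochondrial limits Xist was at 1318 CPM (counts scaled to a sum of 1000000), genes of the Y chromosome at 43.0 CPM and epididymal genes at 20485 CPM, while the libraries labelled male had Xist at 0 to 0.389 CPM and Y-linked genes at 184 to 222 CPM. Of its 44 members, 29 had a Xist UMI, 5 had a Y-linked UMI and 0 had both. Results that rest on it are therefore also given without it. RNA of other cells was measurable in members too: 27.2% of CD4 and 25.3% of CD8 T cells of the 9 tissue libraries held 3 or more UMIs of a marker list of another cell type, against 0 of the 59 PBMC members. That count leaves out the proximal tubule, hepatocyte, secretion, erythroid and immunoglobulin lists. Of these, lung and gastric secretions reached 3 UMIs in 42.7% of CD4 and 36.9% of CD8 T cells, erythroid genes in 34.3 and 31.3%, and immunoglobulins in 32.2 and 21.3%. These pooled shares rest in large part on single libraries. In CD4 T cells library shares ran from 0 to 77.4% for secretions, 0 to 86.8% for erythroid genes and 0 to 69.8% for immunoglobulins. In CD8 T cells they ran from 1.12 to 72.8%, 0 to 83.4% and 2.15 to 67.1%. The highest CD4 shares were in wt replicate 2 for secretions and erythroid genes and in wt replicate 4 for immunoglobulins. The part of this RNA in the results was not tested beyond the counts without such barcodes.

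Members were compared with CD8 T cells of the same libraries to ask which genes other than the gate genes set them apart. UMIs were summed per class and library and tested with edgeR's quasi-likelihood method with library as a block, in the 8 tissue libraries with at least 10 cells of each class (819 CD4 and 1470 CD8 T cells). Of 2645 genes tested, 102 (3.86%) passed an adjusted p of 0.05, 51 of them higher in CD4 T cells (1.93%) and 51 lower (1.93%), and 354 had an unadjusted p below 0.05. Among them, 7 of 12 tested genes of help and costimulation were higher and 7 of 11 tested genes of cytotoxicity were lower. The median log2 difference over all tested genes was -0.01. Over all 2645 genes the levels of both classes did not overlap between libraries in 11 (0.416%), of which 10 were among the 102. Without the library labelled null replicate 3 the count was 88. It depended on single libraries, with 45 calls without wt replicate 2, 46 without het replicate 1, 54 without wt replicate 4 and 171 without wt replicate 1.

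**Figure D1:**
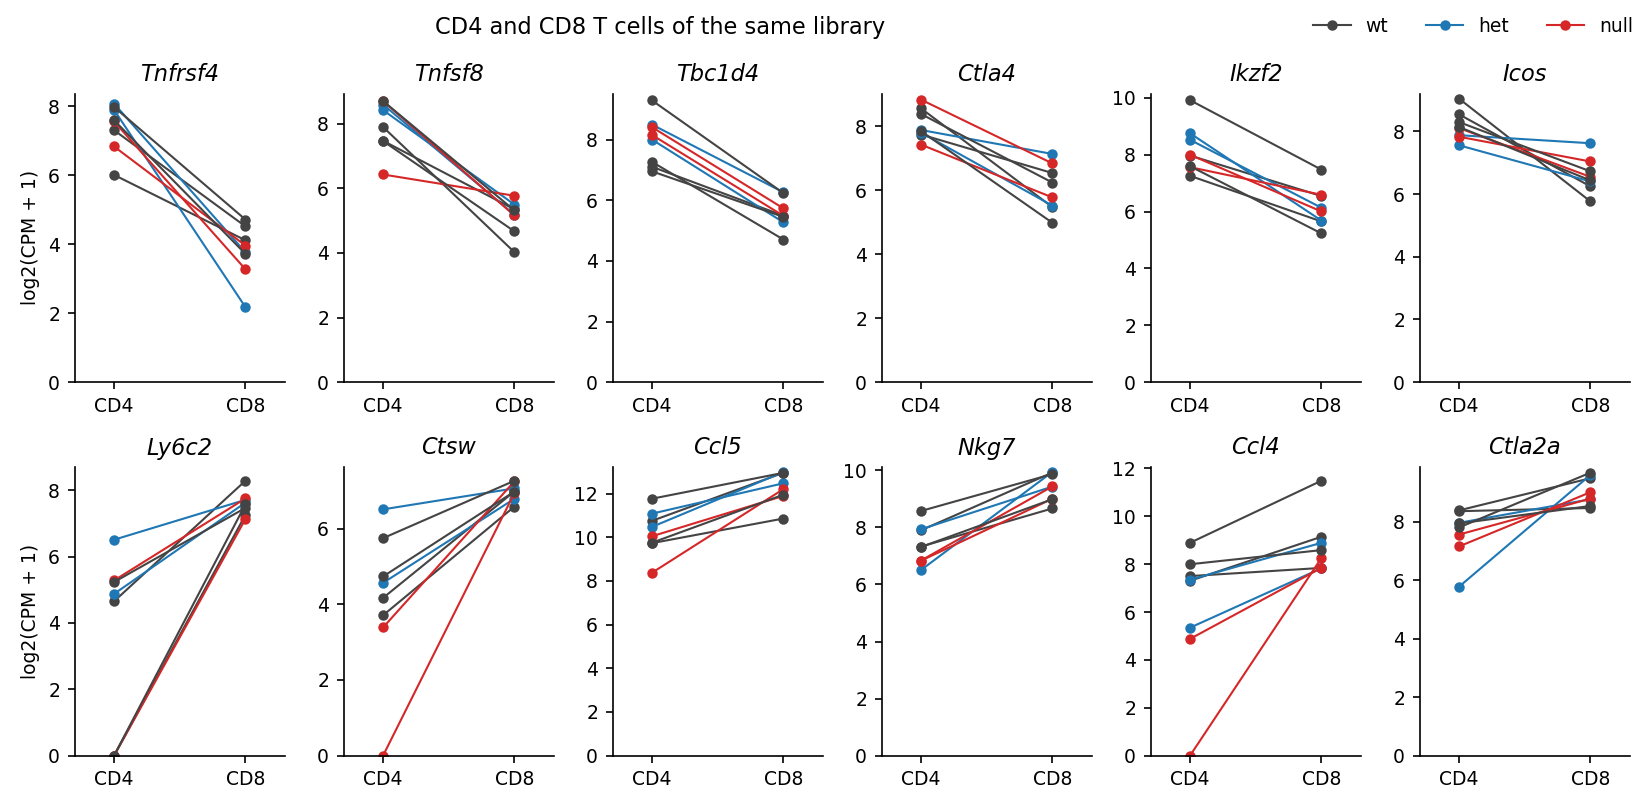
Level of 12 genes, as log2(CPM + 1) of the summed UMIs, in the CD4 and CD8 T cells of the 8 tissue libraries, with a line joining both classes of a library and colour giving the genotype. Tnfrsf4 was between 63.7 and 270 CPM in CD4 and between 3.53 and 25.3 CPM in CD8 T cells, and Nkg7 lay the other way, at 90.0 to 381 and 405 to 985 CPM.

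The help and costimulation list held 17 genes, of which 12 were tested, 7 were higher, 0 were lower and the median log2 difference was 1.10. Tnfrsf4, the receptor OX40, ranged from 63.7 through a median of 191 to 270 CPM in CD4 and from 3.53 through 13.6 to 25.3 CPM in CD8 T cells, without overlap. Its difference was the largest of the 51 higher genes, at 3.28 on the log2 scale (SE 0.31, edgeR adjusted p = 1.18e-05). Tnfsf8, the CD30 ligand, ranged from 85.2 through 290 to 415 CPM in CD4 and from 15.3 through 37.1 to 53.6 CPM in CD8 T cells, again without overlap, a log2 difference of 2.84 (SE 0.26). Icos, a costimulatory receptor and a marker named with earlier results of these data known, was at 302 ± 107 CPM in CD4 and 103 ± 43.8 CPM in CD8 T cells (SD, n = 8 libraries), a log2 difference of 1.68. Other called members of the list had smaller differences: Ramp3, a receptor-modifying protein, was higher by 1.52, Maf, a transcription factor of helper cells, by 1.18, Cd5, a receptor that restrains T cell signalling, by 1.15, and Gata3, a transcription factor of CD4 fate and type 2 help, by 1.05, all on the log2 scale.

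Cd40lg fell below the limit on low values, so it had no test. Its level in CD4 T cells was 24.8 ± 12.2 CPM (SD, n = 8), from 61 UMIs in 53 of 819 cells, against 2.28 ± 2.44 CPM in CD8 T cells, from 12 UMIs. After every cell was thinned to 500 UMIs, 2.18% of the tissue CD4 T cells, 0.203% of the tissue CD8 T cells and 0.0326% of the tissue B cells had a Cd40lg UMI. The same share for Tnfrsf4 was 8.59% in CD4, 0.542% in CD8 and 0.239% in B cells, against 41.3% of the 46 Foxp3-positive T cells of tissue. For Tnfsf8 the thinned shares were 12.3% in CD4 and 1.42% in CD8 T cells, and 0 of the 46 Foxp3-positive cells had a UMI, which allows a share of up to 7.71% by the exact interval. Without thinning, the shares in CD4 T cells were 6.77% for Cd40lg, 25.6% for Tnfrsf4 and 34.6% for Tnfsf8. B cells, taken as a cell type that should lack these transcripts, had a Tnfsf8 UMI in 0.315% after thinning, so the CD4 shares of all 3 genes were above those of B cells.

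Genes known from regulatory T cells were higher as well, although Foxp3 was at 0 UMIs in every member by the gate. Of the 11 genes of the regulatory list, 5 were tested and all 5 of these were higher. Ikzf2, the transcription factor Helios, was at 351 ± 267 CPM in CD4 and 79.4 ± 44.7 CPM in CD8 T cells (SD, n = 8), a log2 difference of 1.95 (SE 0.19). Ctla4, an inhibitory receptor that competes with CD28, was at 278 ± 97.2 and 73.7 ± 38.1 CPM, a log2 difference of 1.96 (SE 0.23, edgeR adjusted p = 0.000105). The remaining 3 were Capg (1.09), an actin-capping protein, Tnfrsf18 (1.00), the receptor GITR, and Nrp1 (0.66), a semaphorin receptor. Nrp1 was called in 6 and Capg in 9 of 17 alternative settings. In the 46 Foxp3-positive cells the thinned shares were higher still, with Ikzf2 in 39.1% and Ctla4 in 32.6%, against 19.8% and 13.5% of the CD4 T cells. The pooled Ikzf2 share of CD4 T cells includes the 308 members of wt replicate 4. Ikzf2 was at 970 CPM there, against a median of 253 CPM over the 8 tissue libraries. How many members were regulatory cells whose Foxp3 transcript was not captured was not tested, and a test between these classes was not run, since only wt replicate 2 (29 cells) had 10 or more Foxp3-positive cells.

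Genes outside the helper and regulatory lists were also among the largest differences. Tbc1d4, a GTPase-activating protein of glucose transporter traffic, was at 285 ± 165 CPM in CD4 and 49.4 ± 17.6 CPM in CD8 T cells (SD, n = 8), a log2 difference of 2.35 (SE 0.19, edgeR adjusted p = 8.95e-06). Hif1a, the oxygen-regulated transcription factor, was at 391 ± 145 and 121 ± 36.4 CPM, a log2 difference of 1.60 (SE 0.15). Eea1, an early endosome protein, was higher by 1.65, Tmem64 by 1.54 and Smco4 by 1.42 on the log2 scale. Stat5a (0.85) and Stat5b (0.71), which transmit interleukin 2 and interleukin 7 signals, Rbpj (1.19), the DNA-binding partner of Notch, Crem (0.95), a cyclic AMP-responsive repressor, and Odc1 (1.06), an enzyme of polyamine synthesis, were also called. Of the 11 receptor signalling genes tested, 1 was higher, the kinase gene Zap70 (0.75, called in 11 of 18 alternative settings), and the 13 immediate early genes tested included no call.

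Genes of lineage subsets gave few calls. Areg, the epidermal growth factor receptor ligand amphiregulin, was higher by 2.01 on the log2 scale and, with Gata3, made up both tested genes of the type 2 list. Areg was called in 9 of 12 and Gata3 in 11 of 15 alternative settings. Rora, a nuclear receptor of interleukin 17-producing and innate-like cells, was higher by 1.39 and was the single call among 3 tested genes of the type 17 list. None of the 4 tested genes of the follicular helper list, the 3 tested proliferation genes or the 2 tested interferon genes was called. In the checkpoint list 3 of 5 tested genes were higher: Ctla4, Tnfsf8 and Nt5e (1.16), the latter an ecto-enzyme that makes adenosine, called in 9 of 14 alternative settings. The effector memory list had 17 tested genes and 1 call, S100a4 (0.92).

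The cytotoxic list was lower. Of its 25 genes 11 were tested, 7 were lower, 0 were higher and the median log2 difference was -1.33. Ccl5, a chemokine of effector cells, ranged from 331 through a median of 1239 to 3478 CPM in CD4 and from 1853 through 5194 to 8107 CPM in CD8 T cells, and the ranges overlapped. Its log2 difference was -2.07. Nkg7, a protein of cytotoxic granules, ranged from 90.0 through 159 to 381 CPM in CD4 and from 405 through 691 to 985 CPM in CD8 T cells, without overlap, a log2 difference of -1.94. Ctsw, a protease of killer cells, was at 28.7 ± 29.2 and 127 ± 19.5 CPM (-2.54), and Gzmk, a granzyme, at 34.2 ± 29.0 and 104 ± 48.9 CPM (-1.33, SD, n = 8). Ccl4 (-1.69), another chemokine, and Eomes (-1.05), a T-box factor of cytotoxic cells, were lower too, Eomes with an edgeR adjusted p of 0.0483 and a call in 7 of 18 alternative settings. Outside the list, the surface protein gene Ly6c2 fell by 3.14 on the log2 scale, from 198 ± 52.5 CPM in CD8 to 27.1 ± 30.2 CPM in CD4 T cells, with Ctla2a, a cathepsin inhibitor, at -1.33 and Ms4a4b at -1.03. After thinning to 500 UMIs, 17.9% of CD4 and 58.4% of CD8 T cells had a Ccl5 UMI, with 2.86% in B cells, and 8.95% and 32.0% had a Nkg7 UMI, with 0.772% in B cells.

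The 51 lower genes also held transcripts outside T cell function, grouped here after the calls were seen. Of 81 tested cytosolic ribosomal protein genes, 20 were lower and 0 higher, with called values between -0.47 and -0.30 and a list median of -0.29. Another 4 were grouped as epididymal secretory genes, Spag11b (-4.71), Defb20, Lcn2 (-3.09) and Spink8. Of these, Lcn2 and Spink8 are not on the epididymal marker list. In the CD8 class of wt replicate 1, 1 barcode held 178546 UMIs, 39562 of them of that list. That barcode enters the CD8 sum of its library for every gene, and its part in the other calls was not tested on its own. The difference in the epididymal genes was not confined to that library. Spag11b and Lcn2 were lower in CD4 T cells in each of the 8 libraries, and were called in 11 of 12 and 14 of 15 alternative settings. In the female wt replicate 4 Spag11b was at 6.30 CPM over all barcodes within the limits, so its order there is near the floor. Over the wt libraries the epididymal list went down to 0% of CD4 and 0.000676% of CD8 UMIs. Without barcodes holding 3 UMIs of another cell type list, Spag11b and Lcn2 were no longer tested and 158 genes were called, 83 of them shared with the 102. That setting removes Spag11b UMIs by construction, since the gene is on the epididymal list. Apart from these epididymal genes, the lists of other cell types had 0 calls in this comparison.

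**Figure D2:**
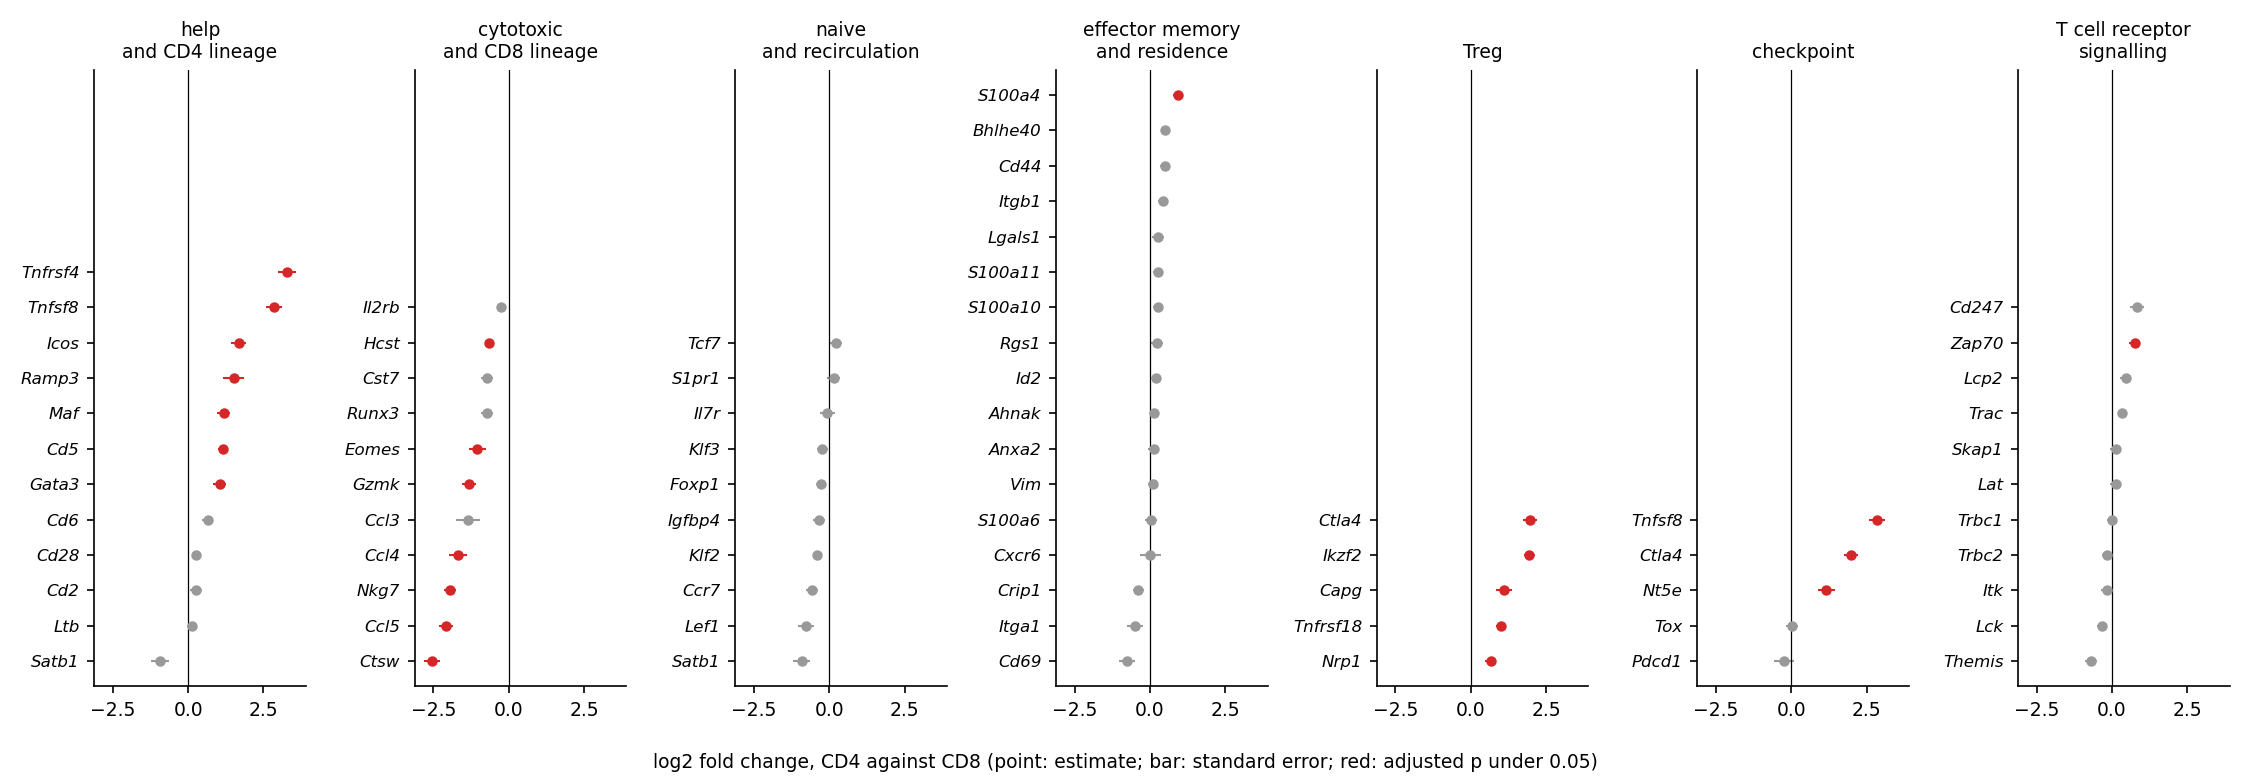
Log2 difference (CD4 minus CD8 T cells) with its standard error for the tested genes of 7 lists, over 8 tissue libraries, with red for an adjusted p below 0.05. The help genes lie above 0 with a median of 1.10, the cytotoxic genes below 0 with a median of -1.33, and the naive and effector memory genes shown have medians of -0.32 and 0.18 and hold 1 call, S100a4 at 0.92.

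The promoters of a pair of higher and a pair of lower genes are shown with the letters of NFAT, RUNX and T-box factors, which are known regulators of activated and cytotoxic T cells. They were chosen after the calls were seen. Sequences are the 250 bases before the transcription start on the gene's strand, from RefSeq on GRCm38.p6, with capitals for the NFAT core TGGAAA, the RUNX core TGTGGT and the T-box site GGTGTGA on either strand. The Tnfrsf4 window is chr4:156013445-156013694 on the plus strand and the Ctla4 window chr1:60908775-60909024 on the plus strand, each with an NFAT core. The Nkg7 window is chr7:43436888-43437137 on the plus strand, with a RUNX core and a T-box site, and the Gzmk window chr13:113180966-113181215 on the minus strand, with a T-box site.
Tnfrsf4: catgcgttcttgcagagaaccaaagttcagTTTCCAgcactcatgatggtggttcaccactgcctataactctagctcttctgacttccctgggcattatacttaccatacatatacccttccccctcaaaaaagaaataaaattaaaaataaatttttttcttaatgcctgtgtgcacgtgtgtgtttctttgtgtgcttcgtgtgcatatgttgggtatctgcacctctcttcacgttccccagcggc
Ctla4: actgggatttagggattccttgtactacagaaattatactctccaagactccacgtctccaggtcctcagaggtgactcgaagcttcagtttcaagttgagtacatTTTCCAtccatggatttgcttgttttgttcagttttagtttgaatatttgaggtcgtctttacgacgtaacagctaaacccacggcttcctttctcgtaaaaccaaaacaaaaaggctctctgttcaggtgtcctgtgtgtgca
Nkg7: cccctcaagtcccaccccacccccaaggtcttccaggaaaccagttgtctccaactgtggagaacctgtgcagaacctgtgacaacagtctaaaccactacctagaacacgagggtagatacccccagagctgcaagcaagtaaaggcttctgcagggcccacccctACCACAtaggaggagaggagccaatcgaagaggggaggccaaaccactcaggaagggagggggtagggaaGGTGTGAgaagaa
Gzmk: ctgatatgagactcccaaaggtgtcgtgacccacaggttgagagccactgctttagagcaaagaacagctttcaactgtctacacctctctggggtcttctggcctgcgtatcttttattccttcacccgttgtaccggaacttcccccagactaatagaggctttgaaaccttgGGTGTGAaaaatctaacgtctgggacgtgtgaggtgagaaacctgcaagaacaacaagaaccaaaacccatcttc
Over windows of 300 bases (250 before and 50 after the start), the NFAT core was in 23.8% of 42 higher genes with a promoter entry, 21.2% of 33 lower genes, 16.6% of 2083 tested genes and 21.5% of all 27025 promoters. The T-box site was in 7.14% of the higher, 9.09% of the lower, 3.31% of the tested and 3.96% of all promoters. The RUNX core was in 4.76%, 12.1%, 11.5% and 16.9%. The printed promoters all hold such letters, which is not so for all named genes. In these windows Hif1a and Lcn2 had an NFAT core and Ly6c2 a RUNX core. Tnfsf8, Tbc1d4, Eea1 and Smco4 of the higher and Ctla2a and Ms4a4b of the lower genes had none of the motifs. These shares are a description of letters in a window and were not tested.

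The level of interleukin 17 in members differed among libraries. Il17a, the cytokine of type 17 helper cells, had a UMI in 94 of 265 members of wt replicate 2 (35.5%, exact 95% interval 29.7 to 41.6%), at 993 CPM. It had a UMI in 8 of 63 members of wt replicate 1, 1 of 25 of wt replicate 3, 1 of 8 of wt replicate 5 (64 UMIs in that cell) and 3 of 60 of 1 library without a genotype. In wt replicate 4, whose members had a median of 1364 UMIs against 2813 in wt replicate 2, it was in 0 of 308, which allows a share of up to 1.19%, and it was 0 in both het replicates, in both libraries labelled null, in the other library without a genotype and in PBMC. In CD8 T cells of wt replicate 2 it was in 10 of 349 (2.87%). After thinning to 500 UMIs the share in wt replicate 2 was 19.6%, the highest of the 8 libraries. Of 1090 Il17a UMIs in the CD4 T cells of the 8 libraries, 1069 were in wt replicate 2.

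Within wt replicate 2 the members with an Il17a UMI are described against the other members, with no test because the split was chosen after seeing the values. Il17f, the related cytokine, had a UMI in 27.7% of them and 4.09% of the others. Il23r, the receptor that maintains these cells, was in 8.51% and 1.75%, Cxcr6, a receptor of tissue-resident T cells, in 64.9% and 32.2%, and Icos in 73.4% and 40.4%. Tmem176a, an ion channel gene, was in 77.7% and 46.8%. Tcrg-C1, a constant gene of the gamma receptor chain, was in 22.3% and 5.85%, and Trac, the constant gene of the alpha chain, in 62.8% and 52.6%. Il1r1, an interleukin 1 receptor, was in 14.9% and 6.43%, Tmem176b in 73.4% and 42.7% and Cd40lg in 11.7% and 7.02%. Other genes looked at were alike or went the other way: Ccr6, a chemokine receptor of type 17 cells, was in 10.6% and 8.19%, Trbc2, a constant gene of the beta chain, in 62.8% and 61.4%, the gamma delta T cell gene Cd163l1 in 1.06% and 2.34%, and Zbtb16, a transcription factor of innate-like T cells, in 0 of 94 and 1.17%. The median depth was 3004.5 UMIs in the Il17a-positive members and 2543 in the others.

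**Figure D3:**
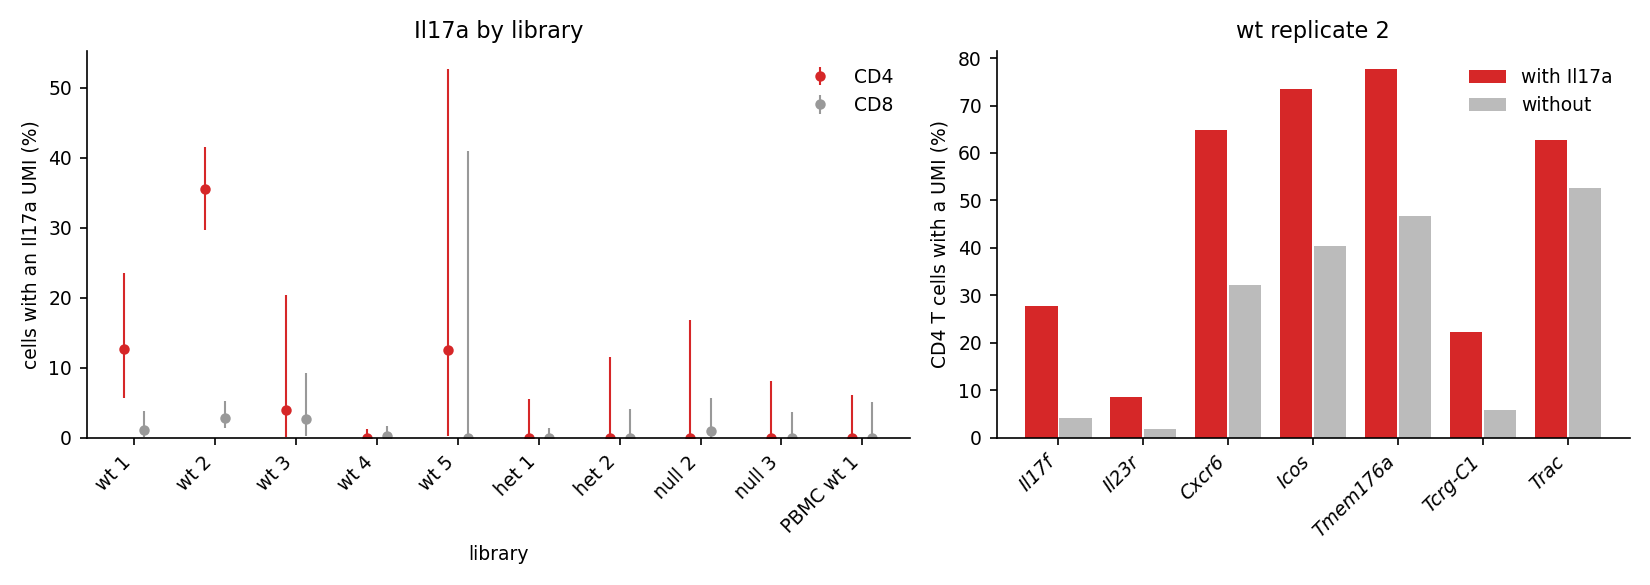
Left, percent of CD4 (red) and CD8 (grey) T cells with an Il17a UMI in each library, with exact 95% intervals. Right, percent of wt replicate 2 members with a UMI of each of 7 genes, split by Il17a, where Il17f stands at 27.7% of Il17a-positive and 4.09% of other members.

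Wt replicate 4, a female library with 308 members, stood apart in another set of genes. Maf was at 1383 CPM there and at 351 to 528 CPM in the 7 other tested libraries, and Ikzf2 was at 970 CPM there and at 152 to 432 CPM in the others. Lag3, an inhibitory receptor for MHC class II, was at 725 CPM, with 0 to 73.7 CPM in the others. Sostdc1, a secreted antagonist of bone morphogenetic proteins and Wnt ligands, was at 273 CPM against 0 to 66.2 CPM, and Il21, a cytokine of B cell help, at 86.0 CPM against 0 to 18.9 CPM. Cxcr6 went the other way among the wt libraries only, at 32.9 CPM in wt replicate 4 and 140 to 241 CPM in wt replicates 1 to 3. A low level was not particular to wt replicate 4, where 14 of 308 members had a Cxcr6 UMI. The counts were 7 of 64 and 4 of 30 in het, and 0 of 20 and 3 of 44 in the libraries labelled null. Outside these 8 libraries, Ikzf2 was at 519 CPM in the 8 members of wt replicate 5 and at 534 and 674 CPM in the libraries without a genotype, and Lag3 at 117, 285 and 159 CPM. Immunoglobulin RNA also stood apart in this library, with 3 or more UMIs in 69.8% of its members and Igkc, the kappa constant gene, at 8976 CPM against 55.2 to 377 CPM in the 7 others, and its part in these values was not tested. The type 2 cytokine genes Il5 and Il13 had 0 UMIs in the members of all libraries, and Il4 had 3 UMIs in wt replicate 2 and 1 in each of wt replicate 4, het replicate 1, the library labelled null replicate 3 and 1 library without a genotype.

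Members with a UMI of Pdcd1, the inhibitory receptor PD-1, were compared with the rest in wt replicates 2 and 4, which were the libraries with enough of them (26 against 239 and 35 against 273 cells). The edgeR fit with library as a block left 1 residual degree of freedom. Its p-values therefore rest largely on a spread shared over genes and say little of the spread between libraries. It called 87 of 4457 genes (1.95%), 16 higher (0.359%) and 71 lower (1.59%). Nkg7 was at 754 ± 92.5 CPM in Pdcd1-positive and 213 ± 159 CPM in other members (SD, n = 2 libraries), a log2 difference of 1.96 (edgeR adjusted p = 3.68e-09). Ifitm1 (2.17), an antiviral membrane protein, Sostdc1 (1.77), Tnfrsf9 (1.62), the receptor 4-1BB, Cd27 (1.45), a costimulatory receptor, Lag3 (1.37), Crem (1.29), Ikzf2 (1.22), Ccl4 (1.19) and Tnfrsf4 (1.03) were higher too, as was Dcn (1.45), a fibroblast gene. Median depth was 3399.5 against 2527 UMIs in wt replicate 2 and 1624 against 1356 UMIs in wt replicate 4. The lower genes included all 4 tested erythroid genes, all 4 tested secretion genes, 3 of 4 tested macrophage genes (Lyz2, Apoe and Cd68) and 2 of 5 tested endothelial genes. Genes of the T cell lists were lower too: Klf2 (-1.29) of the naive list, Vim (-1.48) and Itga1 of the effector memory list, Fos (-1.32) and Hspa1b (-1.51) of the immediate early list, Tmem176a (-1.65) of the type 17 list and Capg (-1.37) of the regulatory list, which also held Ikzf2 and Tnfrsf9. Itga1 had 0 UMIs in the Pdcd1-positive and 124 UMIs in the other members (88.1 ± 12.3 CPM, SD, n = 2 libraries). Its fitted difference of -8.13 is therefore not a measured size. Without barcodes holding 3 UMIs of another cell type list 16 genes were called, 9 of them shared, and the fit without the library block called 0. Of the higher genes named here, Nkg7 was called in 7 of 8 alternative settings, Sostdc1, Lag3 and Crem in 4 of 8, Tnfrsf9, Cd27, Ikzf2, Ccl4 and Tnfrsf4 in 3 of 8, Ifitm1 in 3 of 6 and Dcn in 1 of 5. Of the lower genes, Vim and Fos were called in 4 of 8, Itga1 in 4 of 7 and Klf2 in 2 of 8. The share of members with a Pdcd1 UMI was between 4.55% and 12.0% over the 8 tissue libraries, and 1 of 59 in PBMC.

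Naive and recirculation genes stood mostly above the tissue range in blood members, and part of the effector memory and immediate early genes below it. With 1 blood library there is no test, and a gene is called above or below when the PBMC value lay outside the range of the 8 tissue libraries. By that rule 479 of 3042 genes (15.7%) were above and 656 (21.6%) below, which is the background for the lists. It covers genes above a limit on low values in tissue, so list counts over those genes are given too. Of the 12 genes of the naive list reported here, 10 were above and 0 below, and of the 10 within the background 8 were above. Lef1, a transcription factor of naive T cells, was at 754 CPM in PBMC, with a tissue median of 73.0 and a range of 37.7 to 180 CPM. Klf2, which maintains homing receptors, was at 968 CPM with a tissue range of 196 to 487. Tcf7 was at 606, Ccr7 at 421 and Satb1 at 923 CPM, against tissue medians of 210, 130 and 182 CPM.

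In the effector memory list 7 of 20 genes, or 7 of the 18 within the background, were below the tissue range in blood and 1 was above. Cd44, the adhesion receptor of antigen-experienced cells, was at 44.3 CPM in PBMC and at a median of 368 CPM in tissue. S100a6, a calcium-binding protein, was at 177 and 1053 CPM, S100a4 at 81.3 and 347 CPM, and Rgs1, a brake on chemokine receptor signalling, at 96.0 and 388 CPM. Cd69, a retention receptor, was the gene above, at 133 CPM against a tissue median of 58.8. It had 18 UMIs in PBMC, and its 95% interval of 78.8 to 210 CPM includes the highest tissue value of 110 CPM. Its order was therefore not separated from that library. After thinning to 500 UMIs, Lef1 was in 34.5% of PBMC and 3.87% of tissue members, S100a6 in 3.45% and 36.5%, and Cd44 in 0 of 58 and 13.8%. In tissue B cells the thinned shares were 15.3% for S100a6, 11.3% for Cd44 and 0.337% for Lef1.

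The helper genes were split between blood and tissue. Of 17, 5 were above and 6 below the tissue range in PBMC, and of the 13 within the background 4 were above and 6 below. Above were Cd40lg (81.3 CPM from 11 UMIs), Cd28 (591 CPM), the receptor of the main costimulatory signal, Cd5 (428), Ltb (805), a lymphotoxin subunit, and Satb1. Below were Icos (51.7 CPM), Tnfsf8 (66.5), Maf (73.9 CPM against a tissue median of 490), Ramp3, Tnfsf11 and Tnfrsf4, which had 0 UMIs in blood with an upper bound of 27.3 CPM. After thinning to 500 UMIs, Cd40lg was in 4 of 58 PBMC members (6.90%) and in 6.82% of the members of the highest tissue library, so its order between blood and tissue was not separated at equal depth. In the receptor signalling list 6 of 11 genes were above, with Trac at 584 CPM against a median of 241 and the kinase gene Lck at 510 against 139, while 8 of 13 immediate early genes and 5 of the 7 regulatory genes within the background were below. Within the background, hepatocyte (2 of 2), secretion (4 of 4), endothelial (3 of 5), B cell (4 of 5) and macrophage genes (2 of 3) were below as well. So were natural killer (2 of 2), proximal tubule (2 of 4) and epithelial genes (1 of 2). Of erythroid genes 0 of 4, of neutrophil genes 0 of 3 and of fibroblast genes 0 of 1 were below. The part of dissociation and of RNA from other cells in the tissue values was not tested.

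**Figure D4:**
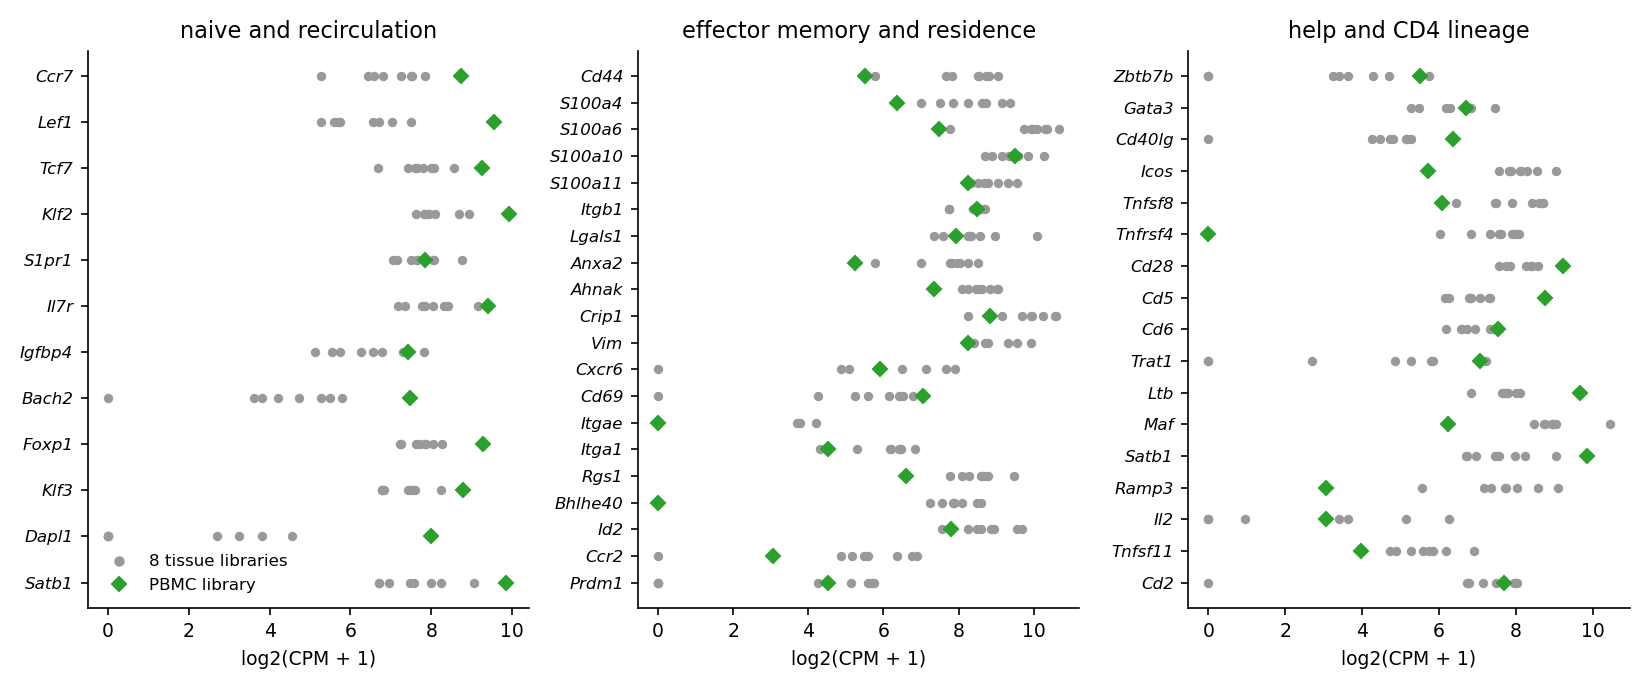
Level of naive, effector memory and helper genes, as log2(CPM + 1), in the members of the 8 tissue libraries (grey points) and of the PBMC library (green diamond). Lef1 and Klf2 lie above all tissue points in PBMC, and Cd44, S100a6, Icos and Tnfrsf4 lie below them.

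The share of members was compared between genotypes to ask whether Nalcn deletion in Prom1-lineage cells went with other numbers of CD4 T cells. Members made up 1.06, 1.45, 0.446, 2.36 and 2.79% of barcodes within the gene and mitochondrial limits in wt replicates 1 to 5, 0.854 and 0.741% in het, and 0.230 and 0.470% in the libraries labelled null replicates 2 and 3. The wt range overlapped both other groups. The highest value, in wt replicate 5, rests on 8 members among 287 such barcodes, and that library counts in the mean like the others. The mean was 1.62 ± 0.952% in wt (SD, n = 5), 0.797 ± 0.0795% in het (n = 2) and 0.350 ± 0.170% in null (n = 2). The difference from wt was -1.27 percentage points in null (two-sided exact permutation p = 0.143) and -0.823 in het (exact permutation p = 0.286), and the smallest p this design allows is 0.0476. These tests had no term for sex. Both het libraries are from males, and their values lay within the 0.446 to 1.45% of the male wt replicates 1 to 3. The female wt replicates 4 and 5 had the highest shares, and the part of sex in these differences was not tested. Without the library labelled null replicate 3 the null difference was -1.39 (exact permutation p = 0.333). Without barcodes holding 3 UMIs of another cell type list, a setting chosen after seeing the data, the differences were -0.766 in null (exact permutation p = 0.238) and -0.284 in het (exact permutation p = 0.524).

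Of the CD4 and CD8 T cells together, CD4 T cells were 25.3, 43.2, 24.8, 48.9 and 53.3% in wt replicates 1 to 5, 20.3 and 25.2% in het, and 17.1 and 30.8% in the libraries labelled null replicates 2 and 3. The 3 highest values were all wt, and the wt replicates 1 and 3 lay among the het and null values. The highest, in wt replicate 5, rests on 8 CD4 and 7 CD8 T cells (exact 95% interval 26.6 to 78.7%). The difference of means was -15.2 percentage points in null (exact permutation p = 0.286) and -16.4 in het (exact permutation p = 0.190). These tests had no term for sex either. The male wt replicates 1 to 3 ran from 24.8 to 43.2%, beside 20.3 and 25.2% in the male het libraries. The female wt replicates 4 and 5 stood at 48.9 and 53.3%. Without the library labelled null replicate 3 the null difference was -22.0 (exact permutation p = 0.167, the smallest that 1 against 5 libraries allows). The PBMC library stood at 45.7%, and members were 8.69% of its barcodes. These shares count barcodes, so fewer cells of this type and less captured RNA per cell cannot be told apart. The RNA of the pooled organs also differed. Epididymal genes over all barcodes within the limits were at 186 to 3400 CPM in male and 4.44 and 6.30 CPM in female wt libraries. They were at 8300 and 16186 CPM in het and at 22221 and 20485 CPM in the libraries labelled null replicates 2 and 3. The part of the organ mix in the share differences was not tested.

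**Figure D5:**
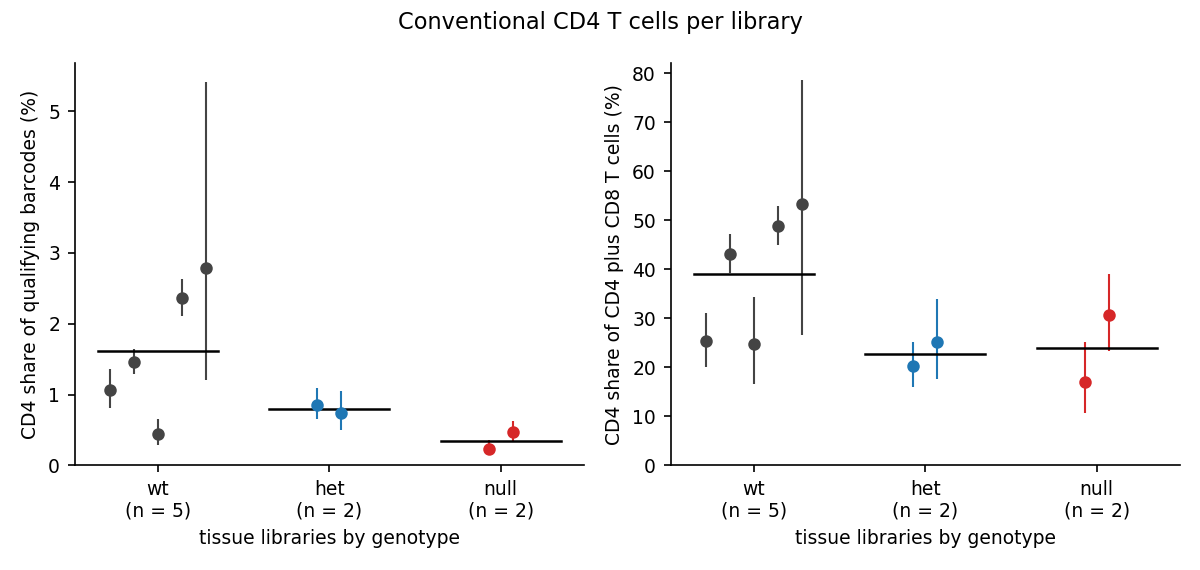
CD4 T cells as percent of barcodes within the gene and mitochondrial limits (one panel) and as percent of CD4 and CD8 T cells (other panel) in each tissue library, with exact 95% intervals for counting error and a line at the group mean (5 wt, 2 het, 2 null). The null libraries are at 0.230 and 0.470% against 0.446 to 2.79% in wt, and the groups overlap.

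Gene levels of members were compared between genotypes with labelled sex as a term. This counts the library labelled null replicate 3 as female, although its RNA went against that label. Between null and wt 0 of 3042 genes were called (0%), with 125 at an unadjusted p below 0.05 in the edgeR fit and 3 called by DESeq2, and a missed threshold with 2 null libraries does not show that levels were alike. The count was 0 without the library labelled null replicate 3 and 7 without het replicate 2, whose spread enters the same fit. It was 7 without the library labelled null replicate 2, where null is only the library that went against its labels, taken to vary like the other groups. None of the 13 tested helper genes (median log2 difference -0.28), 9 tested cytotoxic genes (-1.34) or 10 tested naive genes (0.02) was called, beside a median of -0.06 over all genes. Lag3, for example, had a log2 difference of -6.10 with an edgeR adjusted p of 0.229, with the wt value set by replicate 4, and Icos had -0.48 with an edgeR adjusted p of 0.967. Between het and wt 2 genes were called (0.0657%), both lower (0.0657%), with 127 at an unadjusted p below 0.05. The test of whether the difference of the het and null libraries together from wt was another in CD4 than in CD8 T cells called 0 genes (0%), with 81 at an unadjusted p below 0.05, and 0 called by DESeq2. It called 4 genes without the library labelled null replicate 3, 2 without wt replicate 2 and 1 without wt replicate 4. The unadjusted counts for null, het and this test were each below a share of 0.05 of the genes tested, the share that chance alone gives.

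The 2 genes called in het were S100a8 (edgeR adjusted p = 0.00323) and S100a9 (edgeR adjusted p = 0.0107), the subunits of calprotectin and abundant neutrophil transcripts. S100a9 was at 840, 899, 2001 and 18.3 CPM in the members of wt replicates 1 to 4, at 0 in both het libraries, and at 0 and 9.46 CPM in the libraries labelled null. Pooled, the het value was at least 52.1-fold lower than wt, taking 3 counts of the 232005 het UMIs as the floor. Without wt replicate 2, which held most of the wt UMIs, the bound was 29.7-fold. S100a8 was at 586, 570, 966 and 23.8 CPM in wt and at 5.67 (1 UMI) and 0 CPM in het. The neutrophil list as a whole took 0.0051 to 0.302% of member UMIs in wt and 0 to 0.0011% in het. The het libraries were low in CD8 T cells too, with S100a9 at 7.06 and 6.31 CPM, against 182, 737, 1038 and 72.7 CPM in wt replicates 1 to 4 and 226 and 507 CPM in the libraries labelled null. In wt replicate 2, 45.3% of CD4 and 43.0% of CD8 T cells had a S100a9 UMI, a like share in both classes. Wt replicate 4 and the library labelled null replicate 3 were the female libraries of the fit, and the count of 2 was 0 without the sex term (edgeR adjusted p = 0.999 for both genes) and 0 with replicate number as a block, although the numbers did not pair the libraries. It was also 0 without barcodes holding 3 UMIs of another cell type list, but that setting removes these UMIs by construction, since both genes are on the neutrophil list. It was 0 without het replicate 1, 9 without het replicate 2, 4 without wt replicate 3, 8 without the library labelled null replicate 2 and 5 without the library labelled null replicate 3.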

How the data were processed

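Droplet libraries (10x Chromium, 3' chemistry) were aligned by the authors with Cell Ranger to mm10 and deposited as filtered matrices of raw UMI counts, without normalization. The labels name Cell Ranger 2.1.1 and the matrix headers 3.0.2. Groups came from the labels, and 2 tissue libraries with conflicting genotypes entered no comparison of groups. Total UMIs in the 9 grouped tissue libraries were 8571019 to 139793927, and the summed members of a tested library 26525 to 1076501. The deposited counts were summed per class and library (at least 10 cells) and tested with edgeR 4.0.16 (TMM, filterByExpr, quasi-likelihood, Benjamini-Hochberg over all genes), with DESeq2 1.42.0 as an alternative. CD4 and CD8 T cells of a library came from the same animals, so library was a block. Their deviations from the class means correlated at 0.0677 to 0.670. Shares were compared with exact permutation tests, without a term for sex. Intervals are exact binomial for shares and exact Poisson for CPM, and cover counting error only. The scripts were tested on simulated data. Barcodes with the highest Scrublet scores (scanpy 1.11.5) were marked up to a preset fraction of each tissue library and kept. Members and lists were chosen with earlier results of these data known. Genes named were the 10 with the largest change per direction among those called with the same sign in every library and at least 20 CPM in the higher class, and genes of the lists. A few list genes and 1 planned comparison are not reported here, and counts over lists leave those genes out. Other called genes, the Il17a split and the genes of wt replicate 4 were chosen after their values were seen.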

Additional observations from a re-analysis of the deposited data

Results flagged for a closer look

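Among 27 values tested for a wt tissue library far from the others of its group, 3 stood apart, and chance alone marks about 1 in 20. Tbc1d4 was at 626 CPM and Ikzf2 at 970 CPM in the members of wt replicate 4, and Il17a was at 993 CPM in those of wt replicate 2. Il17a was put among the values by choice and not by the naming rule, so the chance share does not apply to it. Of 55 genes checked, none had CD4 minus CD8 in one direction in every wt library and opposite in every het and null library. The genes named for CD4 against CD8 were picked for the same sign in every library. For them this outcome was fixed in advance, so the check says nothing about them.

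Outside the main comparisons, 11 barcodes of the ntCZC libraries (sorted ZsGreen-tagged blood cells of mice without tumours) met the same gate, 0.522% of 2109 barcodes within the limits. They came from 5 of 10 libraries, with at most 5 in a library. In the tissue libraries whose labels conflict, members were 1.18% of barcodes within the limits in replicate 1 and 0.376% in replicate 2.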

How the results depend on the processing

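The share differences kept their direction under each setting run, and none passed 0.05, which settings without a library could not reach (smallest p 0.0667 without a wt and 0.167 without a het or null library). Leaving out a library in turn, they ranged from -1.56 to -0.979 (null) and -1.12 to -0.532 (het) percentage points of barcodes, and from -22.0 to -8.32 (null) and -19.9 to -12.8 (het) of CD4 plus CD8 T cells. Leave-one-out counts of called genes ranged from 45 to 171 for CD4 against CD8, 0 to 7 for null, 0 to 9 for het and 0 to 4 for the difference between CD4 and CD8 T cells in the contrast of het and null with wt. The cause of these changes was not tested. The 102 calls of CD4 against CD8 became 381 without a filter on low counts, 63 at 20% mitochondrial UMIs, 185 with 11 libraries, 46 at 2 Cd3 UMIs and, in a setting chosen after seeing the data, 158 without barcodes with 3 UMIs of another cell type list. Of the values of 49 named or listed genes in this comparison under these and the other settings, 413 kept their side, 35 lost and 18 gained the call. For 27 genes of the Pdcd1 split 99 values kept and 98 lost the call, and for both het genes 10 kept and 6 lost it. None of these reversed. Null gave 3 calls with DESeq2, 15 without the filter and 6 at 30 cells, which leaves null as the library labelled null replicate 3 alone. Het gave 32 without the filter, 9 at 30 cells, 1 without Scrublet doublets, 0 without the barcodes of other lists and 0 without the sex term. That difference gave 33 without the filter and 4 without Scrublet doublets. The Pdcd1 split gave 8 with DESeq2, 17 at 20% mitochondrial UMIs and 16 without the barcodes of other lists.

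Without the library block, CD4 against CD8 gave 29 calls and the Pdcd1 split 0. Replicate numbers did not pair libraries across genotypes (correlations -0.0593 to 0.0153), and with them as a block null gave 0 calls and het 0. Leaving out a library and the limit of 30 cells gave no value for the Pdcd1 split, and CD4 against Foxp3-positive cells was not run. Members had a median of 1931 UMIs, and the het and null sums rest on 20 to 64 cells a library.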

Other observations

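Of the 2645 genes tested, those most like Cd40lg over the 17 class sums (CD4 and CD8 T cells of 8 tissue libraries and the Foxp3-positive cells of wt replicate 2) were Tspan13 (Pearson r 0.765), Setd5 (0.750), Pip4k2a (0.740), Rbpj (0.737) and Mcts1 (0.731), with Spearman rho of 0.572, 0.573, 0.679, 0.819 and 0.730. The sums share libraries and depth, so these are a description.

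In the 2 tissue libraries without a genotype, the chemokine gene Ccl5 was at 8626 CPM in the members of replicate 1 and 1041 CPM in those of replicate 2, beside 331 to 3478 CPM in the 8 tested libraries, and Nkg7 was at 1939 and 169 CPM, beside 90.0 to 381 CPM. Mki67, a gene of dividing cells, had a UMI in 56 of 819 tissue members (6.84%) and 73 of 1470 CD8 T cells (4.97%), at 71.4 ± 62.3 and 39.9 ± 18.4 CPM (SD, n = 8). It fell below the limit on low values in the comparison within libraries, so this difference had no test.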
